A study of Homo sapiens with 6 samples.

Results

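The genes described here are 9 transcription factors of the neural lineage: EOMES (also called TBR2), TBR1, NEUROG2, POU3F2, POU3F3, PAX6, NFIA, NFIB and NFIX. They are 9 of the 58174 genes of the table. The set was selected on measured values, since EOMES was picked for its higher FPKM after MSI1 depletion, and the other 8 genes were added as related factors. FPKM correct the reads of a gene for its length and for library depth. Because the members were chosen on the contrast between the groups, their values are given as a description, without a test.

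The samples were 6 bulk polyA RNA libraries of the established line KNS42, which comes from a glioblastoma of a child and was grown in DMEM with 10% FBS. Of these, 3 came from cells that received siRNAs directed against MSI1 (siMSI1) and 3 from cells that received a control siRNA (siC), all harvested 72 h after transfection. The comparison asks which transcripts depend on MSI1 in these cells. Both groups were transfected, the labels name no engineered allele, and a single cell line was used. The labels do not say whether replicates were separate cultures, so p-values measure only the spread between these samples, which may be technical. In bulk RNA, a change in the share of cells that transcribe a gene and a change in RNA per cell cannot be told apart.

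In the developing cerebral cortex, PAX6 is a homeobox factor of radial glia, the neural stem cells of the ventricular zone. NEUROG2 is a proneural bHLH factor that drives these cells toward the neuronal fate, EOMES is a T-box factor that marks intermediate progenitors, and TBR1 is the related T-box factor of early postmitotic projection neurons. The POU factors POU3F2 (BRN2) and POU3F3 (BRN1) act in cortical progenitors and upper-layer neurons, and the nuclear factor I proteins NFIA, NFIB and NFIX bind DNA as dimers and act in gliogenesis and the differentiation of progenitors. EOMES is also known from cytotoxic lymphocytes and from mesendoderm of the early embryo. MSI1 is an RNA-binding protein of neural stem cells that binds short uracil-rich words, many of them in 3′UTRs of mRNAs.

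The promoters of EOMES and NEUROG2 are shown because these genes had the largest differences among the 8 members above the expression filter, in opposite directions, and because proneural factors such as NEUROG2 bind E-boxes. The sequences were taken from RefSeq on GRCh38.p14 and hold 250 bases before the annotated start and 50 bases from it. The EOMES promoter lies at chr3:27722274-27722573 and that of NEUROG2 at chr4:112516131-112516430, both on the minus strand and both printed 5′ to 3′ in the direction of transcription. In GENCODE, the EOMES gene spans chr3:27715949-27722711, so its printed window lies within that gene model. The count of E-boxes for EOMES therefore holds for the RefSeq start only. Capitals mark each E-box, searched as CANNTG, which reads the same pattern on both strands.
EOMES promoter: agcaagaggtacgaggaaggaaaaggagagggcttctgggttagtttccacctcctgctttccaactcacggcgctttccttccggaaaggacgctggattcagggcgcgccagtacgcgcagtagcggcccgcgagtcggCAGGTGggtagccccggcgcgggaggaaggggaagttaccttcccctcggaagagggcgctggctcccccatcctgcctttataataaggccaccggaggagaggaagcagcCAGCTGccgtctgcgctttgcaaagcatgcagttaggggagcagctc
NEUROG2 promoter: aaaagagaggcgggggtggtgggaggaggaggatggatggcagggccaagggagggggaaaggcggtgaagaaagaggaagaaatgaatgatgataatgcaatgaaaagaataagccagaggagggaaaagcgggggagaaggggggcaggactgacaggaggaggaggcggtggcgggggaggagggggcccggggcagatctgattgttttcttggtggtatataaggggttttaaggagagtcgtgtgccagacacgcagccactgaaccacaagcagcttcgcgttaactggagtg
The EOMES promoter held 2 E-boxes, CAGGTG at position -109 and CAGCTG at position 3 from the start, and the NEUROG2 promoter held 0. Among all 35116 promoters of the same length, 68.7% held at least 1 CANNTG, with a median of 1. The word CAGATG, or CATCTG on the other strand, is 1 form of CANNTG. It was in neither of the printed windows and in 14.7% of all promoters. The promoter of TBR1 held 3 E-boxes, a count reached by 15.3% of promoters, and those of POU3F2, POU3F3 and NFIA held 0. PAX6, NFIB and NFIX have several annotated promoters, and 6 of 9, 8 of 10 and 4 of 5 of these held an E-box. A match of letters is a description of the sequence, and the data do not measure binding there.

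The words attributed to MSI1 in RNA were searched in the 3′UTRs on the transcript strand, as AUAGU and GUAGU, each with 1, 2 or 3 uracils ahead of the last AGU, which makes 6 words in all. The 3′UTR windows of EOMES, PAX6 and POU3F3 are shown because these 3 mRNAs differed in level between the groups in different directions, and because each has at most 3 such words. Each window holds the word in capitals with 10 bases on each side, on GRCh38.
EOMES chr3:27716536-27716560, minus strand: ugugaaagugAUAGUuucaccugac
EOMES chr3:27716293-27716317, minus strand: uauuguacaaAUAGUcuacauaggu
EOMES chr3:27716151-27716175, minus strand: uacuucuuagAUAGUuaagaaugua
PAX6 chr11:31789480-31789504, minus strand: ccaucuguucAUAGUuuauggacug
PAX6 chr11:31789098-31789122, minus strand: guucuuagauAUAGUuguauuacug
POU3F3 chr2:104858515-104858539, plus strand: uuuaauuugaGUAGUgauuccguaa
All 3 words of EOMES and both words of PAX6 were AUAGU. The EOMES 3′UTR of 1117 bases held 2.69 words per kilobase, a density above that of 72.6% of the 11270 3′UTRs searched. Of all these 3′UTRs, 71.3% held at least 1 word, with a median of 1.57 per kilobase. The 3′UTR of NEUROG2, with 1141 bases, held none of the 6 words, which says only that these letters were not in it. The count depends on the words searched: the shorter word GUAG occurred 3 times there and 0 times in the 3′UTR of EOMES. The longest 3′UTRs, those of NFIA (7468 bases) and NFIB (6461 bases), held the most words, 22 and 19, while that of NFIX (4147 bases) held 3. POU3F2 had 10 words in 3253 bases, TBR1 5 in 1643 bases, PAX6 2 in 908 bases and POU3F3 1 in 1561 bases. The densities per kilobase were 3.07 for POU3F2, 3.04 for TBR1, 2.95 for NFIA, 2.94 for NFIB, 2.2 for PAX6, 0.723 for NFIX and 0.641 for POU3F3. POU3F2, lower in siMSI1, and EOMES, higher, both had a density above the median. A relation between these words and the differences given below was not tested.

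The libraries had 13087025 to 18024080 reads on genes, recovered as whole reads from the FPKM values. MSI1 itself checks the labels: its FPKM was 63.7, 61.9 and 66.9 in siC and 12.1, 12.3 and 11.2 in siMSI1, a log2 fold change of -2.43 (SE 0.067, limma adjusted p = 8.7e-06). No libraries were duplicates: within a group, the reads of a pair of libraries gave a chi-square of 3.55 to 11.2 per degree of freedom, and siMSI1 replicate 3 was the most different from its group. Of the 15069 genes with a mean of at least 0.5 FPKM, 1655 passed an adjusted p of 0.01, 776 higher and 879 lower. This count was 517 without siC replicate 1, 842 and 800 without siC replicates 2 and 3, and 814, 885 and 1603 without siMSI1 replicates 1, 2 and 3.

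In siC, the members covered the range from nearly silent to abundant. NFIX was the most abundant at 62.5 ± 1.69 FPKM (SD, n = 3), above 96.4% of the 19799 protein-coding genes. POU3F3 (53.5 ± 2.36 FPKM), POU3F2 (40.4 ± 2.91 FPKM) and NFIB (12.8 ± 0.956 FPKM) followed. NEUROG2 (4.30 ± 0.399 FPKM) and PAX6 (4.13 ± 0.141 FPKM) overlapped in their libraries, so their order was not resolved. NFIA (0.967 ± 0.122 FPKM) and EOMES (0.728 ± 0.0556 FPKM) lay near the middle of the coding genes, above 46.6% and 44.6% of them. TBR1 was the lowest, at 0.0390 ± 0.00615 FPKM. All other neighbours in this order were apart in every library. FPKM divides by the length of the whole gene model, which was 20812 bases for PAX6 and 2287 bases for NEUROG2, so the level of a gene whose long model is only partly transcribed is understated.

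**Figure D1:**
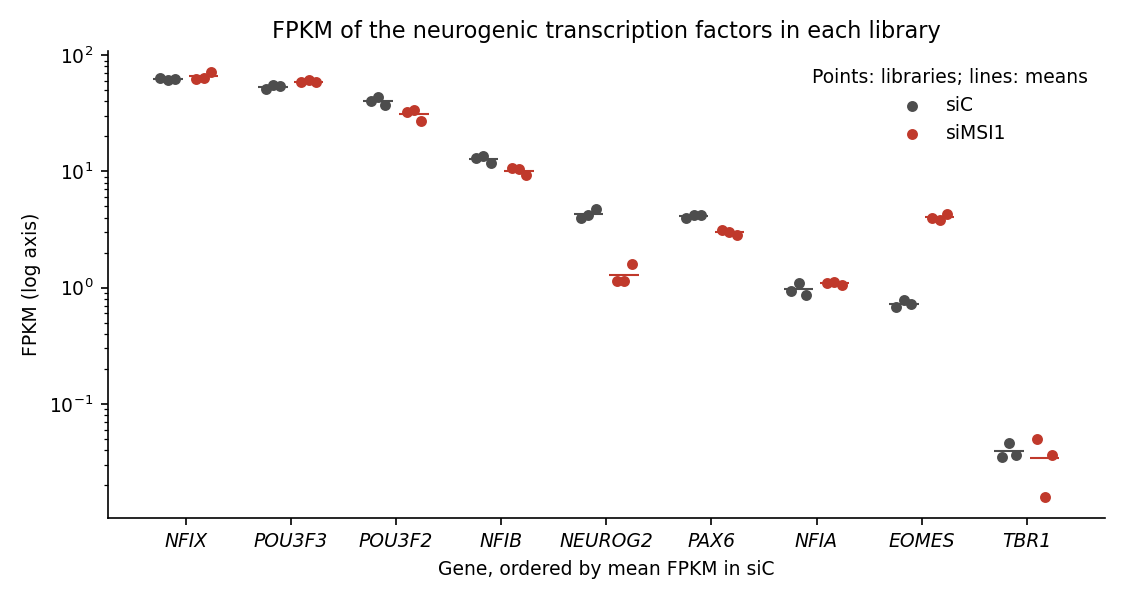
FPKM of the 9 factors on a log axis, in siC (grey) and siMSI1 (red), with 1 point per library and a line at the mean of each group. EOMES moved from a mean of 0.728 to 4.04 FPKM and NEUROG2 from 4.30 to 1.29 FPKM, while the points of NFIA, NFIX and TBR1 overlapped.

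EOMES was the member with the largest difference. Its FPKM was 0.676, 0.786 and 0.722 in the siC libraries and 3.97, 3.84 and 4.30 in the siMSI1 libraries. These values rest on 37, 52 and 38 reads in siC and on 214, 184 and 226 reads in siMSI1. Every siMSI1 library was above every siC library, and within each group the libraries lay close together. The mean was 0.728 ± 0.0556 FPKM in siC and 4.04 ± 0.240 FPKM in siMSI1 (SD, n = 3 each), 5.55-fold higher in siMSI1. On the log2(FPKM + 0.1) scale, which understates the change of low genes, the difference was 2.32 (SE 0.127). For this gene, 3 reads would give 0.0454 to 0.0626 FPKM, a floor that covers counting error only, and the siC values were well above it. The gene lies at chr3:27715949-27722711 on the minus strand (ENSG00000163508), and no other annotated gene overlaps it.

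NEUROG2, the proneural factor that acts upstream of EOMES in the cortex, differed in the opposite direction. Its FPKM was 3.97, 4.18 and 4.74 in siC and 1.13, 1.13 and 1.61 in siMSI1, from 136, 173 and 156 reads and from 38, 34 and 53 reads. The groups did not overlap, and the highest siMSI1 library was replicate 3. The mean was 4.30 ± 0.399 FPKM in siC and 1.29 ± 0.279 FPKM in siMSI1, or 30.1% of siC, with a log2 difference of -1.67 (SE 0.160). The gene (ENSG00000178403, chr4:112513516-112516180, minus strand) is overlapped on the opposite strand by the noncoding gene NEUROG2-AS1, listed in the table as AC023886.1. This antisense gene had 1.65 ± 0.230 FPKM in siC and 1.10 ± 0.376 FPKM in siMSI1, and did not pass the test (limma adjusted p = 0.13). The libraries were strand-specific, but the strand setting of the counting is not given in the sources used here, so reads of overlapping genes on opposite strands may not have been separated.

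The ratio of EOMES to NEUROG2 FPKM was 0.17, 0.188 and 0.152 in siC and 3.52, 3.39 and 2.67 in siMSI1. NEUROG2 was the more abundant of the pair in every siC library and EOMES in every siMSI1 library.

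PAX6, the radial glia factor, was moderately lower in siMSI1. Its FPKM was 3.97, 4.21 and 4.21 in siC and 3.16, 3.01 and 2.83 in siMSI1, with 1237 to 1586 and 820 to 968 reads per library. The groups did not overlap, and the mean in siMSI1 (3.0 ± 0.161 FPKM) was 72.6% of that in siC (4.13 ± 0.141 FPKM), a log2 difference of -0.45 (SE 0.092). PAX6 (ENSG00000007372) lies at chr11:31784779-31817961 on the minus strand. On the opposite strand it overlaps ELP4, which did not pass the test (log2 fold change -0.04, SE 0.243, limma adjusted p = 0.92), and the noncoding PAUPAR, which had 1 to 5 reads per library. The ratio of PAX6 to NEUROG2 was 0.965 ± 0.0666 in siC and 2.40 ± 0.564 in siMSI1.

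TBR1, the T-box factor that follows EOMES in the cortical lineage, was close to silent in both groups. It had 5, 8 and 5 reads in siC and 7, 2 and 5 reads in siMSI1, or 0.0348, 0.0461 and 0.0362 FPKM and 0.0495, 0.0159 and 0.0363 FPKM. The groups overlapped, the gene was below the filter of 0.5 FPKM, and a difference was not detectable at this depth. TBR1 (ENSG00000136535) lies at chr2:161416297-161425870 on the plus strand. The genes that overlap it were as low: SLC4A10 had 3 to 9 reads per library, AC009487.1 had 0 to 1 and AC009487.3 had 0.

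The closely related POU factors POU3F2 and POU3F3 differed in opposite directions by small amounts. POU3F2 (ENSG00000184486, chr6:98834574-98839458, plus strand) had 40.1, 43.4 and 37.6 FPKM in siC and 32.2, 33.8 and 27.2 FPKM in siMSI1. Its highest siMSI1 library was below its lowest siC library, and the mean in siMSI1 (31.1 ± 3.43 FPKM) was 77.0% of that in siC (40.4 ± 2.91 FPKM), a log2 difference of -0.38 (SE 0.097). POU3F3 (ENSG00000198914, chr2:104853287-104858574, plus strand) had 50.9, 55.5 and 54.2 FPKM in siC and 58.3, 61.3 and 58.4 FPKM in siMSI1. It was higher in every siMSI1 library than in any siC library, but by 1.11-fold of the mean only, a log2 difference of 0.15 (SE 0.063). Both genes had at least 1908 reads in every library. The ratio of POU3F2 to POU3F3 was 0.788, 0.783 and 0.694 in siC and 0.553, 0.551 and 0.466 in siMSI1, and replicate 3 had the lowest ratio in both groups. A noncoding gene on the same strand as POU3F3, AC018730.2, had 8.89 to 13.0 FPKM in siC and 14.6 to 18.2 FPKM in siMSI1 (log2 fold change 0.67, SE 0.148, limma adjusted p = 0.015).

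Among the nuclear factor I members, only NFIB had groups that did not overlap. NFIB (ENSG00000147862, chr9:14081843-14398983, minus strand) had 13.1, 13.5 and 11.7 FPKM in siC and 10.6, 10.4 and 9.31 FPKM in siMSI1. The mean in siMSI1 (10.1 ± 0.705 FPKM) was 79.2% of that in siC (12.8 ± 0.956 FPKM), a log2 difference of -0.33 (SE 0.086). NFIB-AS1, on the opposite strand and listed as AL136366.1, was also lower in every siMSI1 library (2.0 to 3.40 FPKM, against 3.93 to 5.80 FPKM) without passing the threshold (log2 fold change -0.79, SE 0.211, limma adjusted p = 0.03). The other overlapping gene in the table, RPL7AP47, listed as AL441963.1, had 0 reads.

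NFIA (ENSG00000162599, chr1:60865259-61462788, plus strand) had 0.927, 1.10 and 0.870 FPKM in siC and 1.09, 1.12 and 1.06 FPKM in siMSI1. The groups overlapped, and the log2 difference of 0.16 was smaller than its SE of 0.173. The overlapping antisense genes NFIA-AS1 and NFIA-AS2 had 0 reads in all libraries, and AC099792.1 had 1 read in 1 library. NFIX (ENSG00000008441, chr19:12995475-13098796, plus strand) had 64.0, 60.7 and 62.9 FPKM in siC and 62.1, 64.2 and 71.7 FPKM in siMSI1, with a log2 difference of 0.07 (SE 0.073). The groups overlapped, and the highest value was again that of siMSI1 replicate 3. Of the genes overlapping NFIX, AC007787.2 on the same strand had 2 to 13 reads per library and did not pass the test (log2 fold change 0.80, SE 0.559, limma adjusted p = 0.34), and AC138474.1 and AC007787.1 had at most 4 reads and 1 read.

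The fourth gene of the family, NFIC, is no member and had 24.9 ± 0.974 FPKM in siC and 28.3 ± 2.75 FPKM in siMSI1 (log2 fold change 0.18, SE 0.083, limma adjusted p = 0.15). NFIC did not pass the threshold, but it was higher in every siMSI1 library than in any siC library, as were 21.4% of all genes tested. NFIX held 61.8% ± 1.20 of the summed FPKM of the family in siC and 62.5% ± 0.949 in siMSI1. The share of NFIB was 12.6% ± 0.899 in siC and 9.64% ± 1.26 in siMSI1, that of NFIC was 24.6% ± 0.369 and 26.8% ± 1.0, and that of NFIA was 0.957% ± 0.130 and 1.04% ± 0.0882. The family summed to 99.6 to 104 FPKM per library in siC and to 101 to 113 FPKM in siMSI1.

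**Figure D2:**
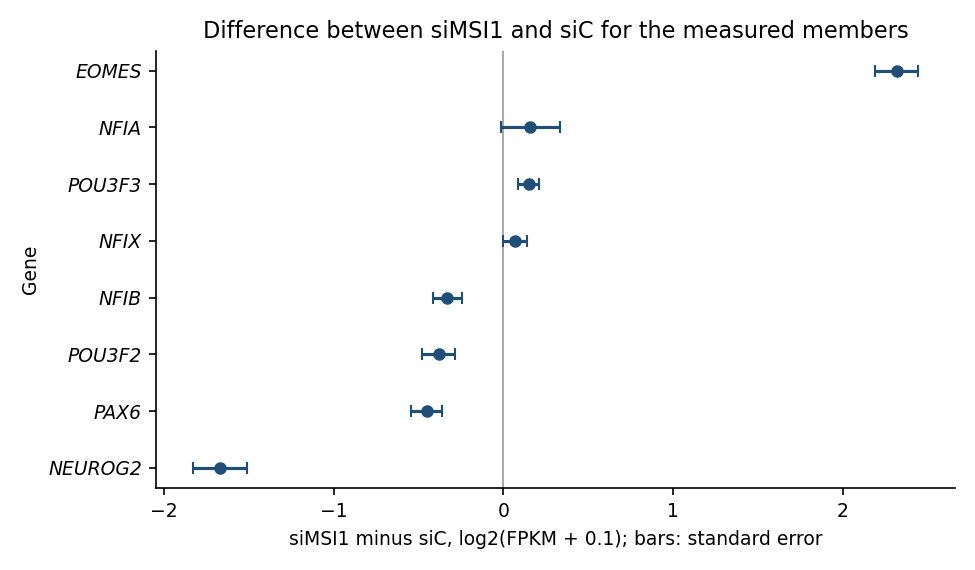
Difference between siMSI1 and siC of the 8 factors with a mean of at least 0.5 FPKM, as log2(FPKM + 0.1), with the standard error of the fit over 3 libraries per group. EOMES (2.32) and NEUROG2 (-1.67) stand apart from the other 6, which lie between -0.45 and 0.16.

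Of the 9 members, 8 had a mean of at least 0.5 FPKM and 1, TBR1, did not. The groups did not overlap for 6 members, of which 2 (EOMES and POU3F3) were higher and 4 (NEUROG2, PAX6, POU3F2 and NFIB) were lower in siMSI1, and they overlapped for 3 (TBR1, NFIA and NFIX). Over all 15069 genes tested, the groups did not overlap for 42.8%, with 21.4% higher and 21.5% lower. Since the members were chosen on this contrast, nothing is read from their count. In siMSI1 the order of the levels differed from that in siC in the place of EOMES, which moved from position 8 to position 5 above PAX6, and of NEUROG2, which lay below PAX6. Without siMSI1 replicate 3, the library least like its group, the log2 difference was 2.28 for EOMES, -1.83 for NEUROG2, -0.41 for PAX6, -0.29 for POU3F2, -0.27 for NFIB, 0.16 for POU3F3, 0.18 for NFIA and 0.01 for NFIX.

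The genes with a profile over the 6 libraries most like that of EOMES were searched among 11364 protein-coding genes, by the root mean square difference of log2(FPKM + 0.1) after centring each gene. They were HHIPL2 (difference 0.094), SLC6A11 (0.099), SLC26A9 (0.141), MRO (0.192) and FAM84A (0.215). HHIPL2 had 0.898 ± 0.0497 FPKM in siC and 4.56 ± 0.0741 FPKM in siMSI1. SLC6A11, a GABA transporter of astrocytes, had 0.404 ± 0.0462 and 2.35 ± 0.227 FPKM, and SLC26A9, an anion transporter, had 2.34 ± 0.265 and 10.8 ± 0.717 FPKM. MRO had 0.115 ± 0.0462 and 0.913 ± 0.0279 FPKM, with 5 to 15 reads in siC, and FAM84A had 0.435 ± 0.0417 and 2.1 ± 0.226 FPKM. These genes were found by their likeness over the same libraries, so their differences are a description. TBR1, below the filter of 0.5 FPKM, was not searched, and none of the other members was among the 5. NEUROG2 was at rank 11350 of 11364, which restates its difference in the opposite direction.

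**Figure D3:**
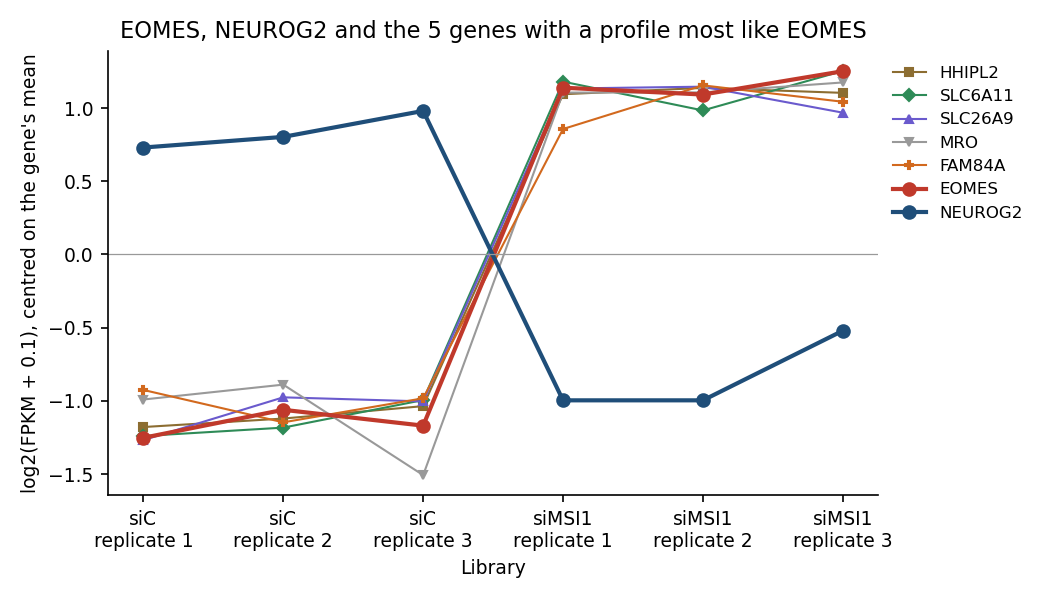
Values of log2(FPKM + 0.1), centred on the mean of each gene, in the 6 libraries for EOMES, NEUROG2 and the 5 genes most like EOMES. The 5 genes follow EOMES closely, from a root mean square difference of 0.094 for HHIPL2 to 0.215 for FAM84A, and NEUROG2 runs the opposite way.

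Other factors of neurogenesis were examined in 4 lists compiled by function, which do not contain the members. Since earlier results of these data were known when the lists were chosen, their counts are a description. Together the lists hold 113 genes, of which 55 were tested. Upon MSI1 knockdown 17 changed, 5 higher and 12 lower, and 38 did not pass the threshold. Over all 15069 genes tested, 11% passed it, 5.15% higher and 5.83% lower. The median log2 fold change over the 55 genes was -0.08, beside 0.00 over all genes tested. The count of 17 was 6 without siC replicate 1, 10 without siC replicate 2 or 3, and 9, 8 and 16 without siMSI1 replicates 1, 2 and 3.

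Of the proneural and neuronal differentiation factors, 12 of 32 were tested, 2 rose, 1 fell and 9 did not pass (median 0.09). All 3 that changed belong to the partners of proneural proteins and not to the proneural genes themselves. ID1 and ID3 encode inhibitors that bind E proteins and keep them from pairing with proneural factors, and TCF3 encodes an E protein. ID1 rose from 68.9 ± 1.93 to 112 ± 5.88 FPKM (log2 fold change 0.69, SE 0.066, limma adjusted p = 0.00055) and ID3 from 264 ± 20.3 to 395 ± 33.4 FPKM (0.58, SE 0.088, adjusted p = 0.0034), while TCF3 fell from 47.4 ± 2.37 to 33.9 ± 2.01 FPKM (-0.48, SE 0.072, adjusted p = 0.0031). The other inhibitors ID2 (-0.07) and ID4 (0.10) and the E protein genes TCF4 (0.15) and TCF12 (-0.08) did not pass the threshold. ID1 passed without each library in turn. ID3 did not pass without siC replicate 1 (adjusted p = 0.02), siC replicate 2 (0.015) or siMSI1 replicate 1 (0.011). TCF3 did not pass without siC replicates 1 (0.022) or 3 (0.015) or siMSI1 replicates 1 (0.013) or 2 (0.012).

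Of the cortical projection neuron factors, 11 of 20 were tested, 2 rose, 2 fell and 7 did not pass (median 0.04). Of the 9 not tested, 4 had at most 3 reads in every library, among them BCL11B, CUX2 and ZFPM2. FEZF2, also not tested, had 1 to 5 reads per library. MEF2C, a MADS-box factor of neuronal differentiation, rose from 2.55 ± 0.245 to 4.52 ± 0.333 FPKM (log2 fold change 0.80, SE 0.110, limma adjusted p = 0.0023), and the zinc finger gene FEZF1 from 23.5 ± 0.930 to 33.8 ± 1.02 FPKM (0.52, SE 0.063, adjusted p = 0.0013). LMO4, a LIM-only transcriptional cofactor, fell from 21.9 ± 0.435 to 14.7 ± 0.457 FPKM (-0.58, SE 0.061, adjusted p = 0.0008), and the corepressor TLE4 from 14.9 ± 0.903 to 11.1 ± 0.17 FPKM (-0.42, SE 0.070, adjusted p = 0.0047). LMO4 passed without each library in turn, and FEZF1 in all but that without siC replicate 1 (adjusted p = 0.011). MEF2C did not pass without siC replicate 1 (0.014) or siMSI1 replicates 1 (0.012) or 2 (0.011), and TLE4 did not pass without siC replicates 1 (0.029) or 2 (0.02) or siMSI1 replicates 1 (0.019) or 2 (0.018).

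The forebrain progenitor and patterning factors that changed were all lower upon MSI1 knockdown. Of 25 genes 20 were tested, 0 rose, 8 fell and 12 did not pass, with a median log2 fold change of -0.27. In 15 of the 20 all siMSI1 libraries were below all siC libraries, and in 1 all were above, beside 21.5% and 21.4% of all genes tested. The genes that fell include 4 members of the DLX homeobox family, which acts in the ventral forebrain and in interneurons. DLX1 fell from 33.6 ± 0.638 to 16.9 ± 0.578 FPKM (log2 fold change -0.99, SE 0.060, limma adjusted p = 0.00021) and DLX5 from 103 ± 1.79 to 65.5 ± 2.57 FPKM (-0.66, SE 0.060, adjusted p = 0.00052). DMRT3, a factor of the dorsal telencephalon, fell from 43.3 ± 1.97 to 23.0 ± 0.118 FPKM (-0.91, SE 0.061, adjusted p = 0.00025). NR2E1 (TLX), the orphan nuclear receptor of neural stem cells, fell from 19.4 ± 1.16 to 11.4 ± 1.02 FPKM (-0.76, SE 0.087, adjusted p = 0.0011). These 4 passed under all 15 alternatives, and DLX2 and DLX6 under 9 and 10 of them. The count of 8 was 4 without siC replicate 1, 2 or 3 or siMSI1 replicate 2, 6 without siMSI1 replicate 1 and 7 without siMSI1 replicate 3.

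**Figure D4:**
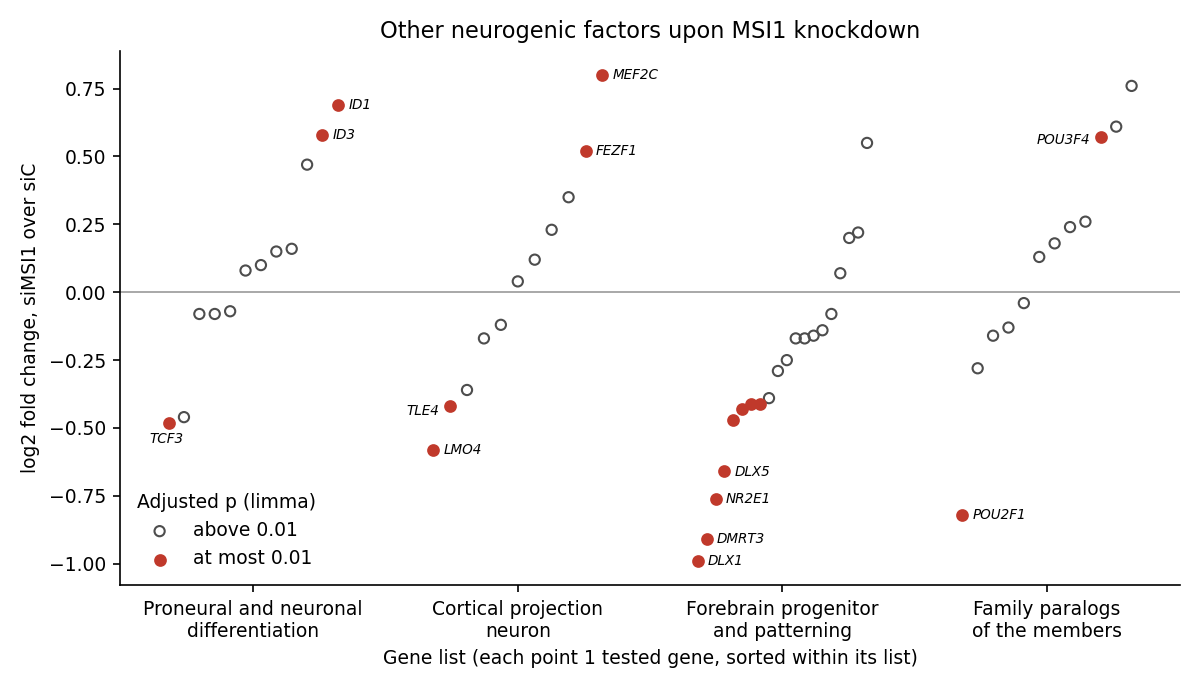
log2 fold changes of siMSI1 over siC, on the log2(FPKM + 0.1) scale, of the 55 tested genes of the 4 factor lists, with genes at an adjusted p of at most 0.01 (limma) filled, and up to 4 of them named in each list, those with the largest change. In the forebrain list all 8 filled points are below 0, and the other lists have filled points on both sides.

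The family paralogs of the members (T-box, POU, nuclear factor I and PAX genes) had 12 of 36 genes tested, of which 1 rose, 1 fell and 10 did not pass (median 0.16). POU3F4 (BRN4), the next relative of POU3F2 and POU3F3, rose from 3.77 ± 0.415 to 5.64 ± 0.428 FPKM (log2 fold change 0.57, SE 0.108, limma adjusted p = 0.0081), and the ubiquitous factor POU2F1 (OCT1) fell from 1.72 ± 0.199 to 0.934 ± 0.0733 FPKM (-0.82, SE 0.159, adjusted p = 0.0092). POU2F1 did not pass in any of the 6 fits that left out 1 library (adjusted p 0.017 to 0.047), and POU3F4 passed only without siC replicate 2 (0.0091), with 0.015 to 0.038 without each of the others.

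The tested T-box paralogs of EOMES did not pass the threshold in the full fit, and the T-box genes of the list below the filter were not tested. The log2 fold change was 0.76 (SE 0.178, limma adjusted p = 0.018) for TBX19 and 0.61 (SE 0.130, adjusted p = 0.013) for TBX3, each higher in every siMSI1 library. TBX19 passed without siMSI1 replicate 3 (0.0093) and with voom on the recovered reads (0.0058), and TBX3 with voom (0.0018). The log2 fold change was -0.28 for TBX18, -0.16 for TBX2, 0.26 for TBX6, 0.24 for TBX20 and 0.13 for MGA. POU6F1 (-0.13) and PAX9 (-0.04) did not pass either.

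Markers of other cells that express EOMES were checked in the same libraries. Of 16 T and NK lymphocyte markers, 15 had at most 3 reads in every library, and the list summed to 0.200 to 0.387 FPKM per library in siC and to 0.148 to 0.275 FPKM in siMSI1. The exception was KLRD1, with 44, 33 and 19 reads in siC and 52, 29 and 33 reads in siMSI1. Its mean was 0.116 FPKM in siC and 0.154 FPKM in siMSI1, below the filter of 0.5 FPKM. The defining marker PTPRC (CD45) had 0, 1 and 0 reads in siC and 0, 0 and 3 reads in siMSI1. Of 16 mesendoderm markers, 9 had at most 3 reads in every library and 2 were tested. These were GSC (log2 fold change 0.49, SE 0.121, limma adjusted p = 0.022) and FOXA1 (0.19, SE 0.081, adjusted p = 0.13), and neither passed. Each was higher in every siMSI1 library than in any siC library, as were 21.4% of all genes tested. That list summed to 12.4 to 13.2 FPKM per library in siC and to 13.9 to 15.9 FPKM in siMSI1.

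Of the neuronal structural and RNA-binding markers, 7 of 20 were tested, 0 rose and 2 fell (median -0.24): SYN1 (synapsin I) from 2.26 ± 0.251 to 1.19 ± 0.159 FPKM and SCG2 (secretogranin II) from 20.7 ± 1.19 to 15.9 ± 0.379 FPKM. Their log2 fold changes were -0.87 (SE 0.154, limma adjusted p = 0.0062) and -0.37 (SE 0.068, adjusted p = 0.0069), and neither passed in any of the 6 fits that left out 1 library (adjusted p 0.011 to 0.027 for SYN1 and 0.013 to 0.041 for SCG2). The list summed to 168 to 171 FPKM per library in siC and to 177 to 195 FPKM in siMSI1, of which GAP43 made up the most (123 ± 3.50 and 148 ± 9.12 FPKM).

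Of 8 astrocyte markers, 5 were tested, and 2 rose and 2 fell. GFAP rose from 1.63 ± 0.335 to 4.61 ± 0.450 FPKM (log2 fold change 1.46, SE 0.158, limma adjusted p = 0.0009), and AQP4 from 24.3 ± 2.0 to 42.5 ± 4.30 FPKM (0.80, SE 0.096, adjusted p = 0.0013). FABP7, a marker of radial glia as well, fell from 36.1 ± 2.05 to 16.6 ± 1.38 FPKM (-1.12, SE 0.082, adjusted p = 0.00027). GJA1 fell from 275 ± 21.6 to 180 ± 18 FPKM (-0.62, SE 0.095, adjusted p = 0.0036) and did not pass without siC replicates 1 (0.02) or 2 (0.015) or siMSI1 replicate 1 (0.012). The fifth tested marker, SLC1A3, did not pass (0.23, SE 0.060, adjusted p = 0.028). It had 18.6 ± 0.292 FPKM in siC and 21.8 ± 0.664 FPKM in siMSI1, and was higher in every siMSI1 library. ALDH1L1 and S100B had 0 reads in every library. This list summed to 332 to 382 FPKM per library in siC and to 240 to 285 FPKM in siMSI1, of which GJA1 made up the most. Of 8 oligodendrocyte lineage markers only PDGFRA was tested (0.20, SE 0.067, adjusted p = 0.062), with a summed FPKM of 20.6 to 21.5 in siC and 22.7 to 25.4 in siMSI1. PDGFRA made up nearly all of this sum, and the other 7 markers had at most 3 reads in every library. Of 8 microglia and macrophage markers 0 were tested, with at most 16 reads for any of them in a library and a summed FPKM of 0.172 to 0.411 in siC and 0.375 to 0.876 in siMSI1. The part of these markers in the levels of the members was not tested.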

How the data were processed

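According to the submitters' processing notes and the methods, the authors clipped reads (cutadapt 1.14), aligned them to GRCh38 (HISAT2 2.1.0, SAMtools 1.5), summarized them per gene on Ensembl release 89 (featureCounts 1.5.3) and deposited 1 table with the FPKM and gene length. The table also holds the authors' own comparison as deposited log2 fold changes and p-values with false discovery rates (edgeR 3.18.1), which were not used. FPKM values times gene length were whole reads for 100% of values above 0 (tolerance 0.01). All genes with a mean of at least 0.5 FPKM (15069) entered 1 model of log2(FPKM + 0.1), siMSI1 over siC, in limma 3.58.1 (R 4.3.3, lmFit, eBayes with trend and robust) that had no block. Benjamini-Hochberg adjustment covered all tested genes, with a threshold of 0.01. The model was also run on simulated reads with the same dispersion (spread between replicates) for every gene. That run did not hold the unequal spread of these libraries, so it does not check the p-values for it. The members and lists were chosen with earlier results of these data known. Named are all members, MSI1, genes in the table that overlap a member, every tested paralog, of each list up to 4 changed genes with the largest log2 fold change and a mean of at least 1 FPKM, and the 5 genes most like EOMES. Other list genes (ID2, ID4, TCF4, TCF12, FEZF2, BCL11B, CUX2, ZFPM2, DLX2, DLX6, GAP43, PTPRC, KLRD1, GSC, FOXA1, SLC1A3, ALDH1L1, S100B, PDGFRA) were named after their values were seen. Gene positions and 3′UTRs came from GENCODE release 44 (57392 of 58174 identifiers matched), and promoters from RefSeq, where all 9 members matched (32 promoters). Alternatives were 2 other added values (1 and 0.01), no filter, a mean of at least 1 FPKM, median centring, quantile normalization, no trend and robust, voom on the recovered reads, a replicate block, an adjusted p of 0.05 (for counts) and leaving out each of the 6 libraries. Python 3.11.15, numpy 2.4.6, pandas 2.3.3 and matplotlib 3.10.9 were used for the rest.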

Additional observations from a re-analysis of the deposited data

How the results depend on the processing

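The log2 difference of EOMES was 2.32 and became 1.54 with an added value of 1, and 2.46 with an added value of 0.01 or with voom on the recovered reads. The fall of MSI1 passed under all 15 alternatives. The count of 1655 changed genes over the whole table was 792 without the filter on low values, 847 without trend and robust, 2712 with voom and 3787 at an adjusted p of 0.05, and 517 to 1603 when 1 library was left out. The 17 changed genes of the 4 factor lists were 9 without the filter and 9 without trend and robust, and 6 to 16 when 1 library was left out. The 8 changed forebrain factors were 5 without the filter, 4 without trend and robust, and 4 to 7 when 1 library was left out. When 1 library was left out, TBX2 ranged from -0.34 to 0.06 and PAX9 from -0.14 to 0.04, with a sign opposite to the full fit for TBX2 without siMSI1 replicate 2 and for PAX9 without siC replicate 1 (0.04) or siMSI1 replicate 1 (0.02). The causes were not tested.

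Deviations of same-numbered libraries from their group means correlated by -0.066, 0.078 and 0.083, so the numbers were not taken to pair the libraries, and not every library correlated best with its own number. With the replicate block, 2250 genes changed over the whole table, 16 in the 4 factor lists and 7 in the forebrain list, and the difference of EOMES was 2.32, while POU2F1 no longer passed (limma adjusted p = 0.013). Its log2 fold change was -0.49 with an added value of 1. Depth limits TBR1, at 2 to 8 reads per library, and 3 libraries per group limit the detection of small changes.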
